A study of Mus musculus with 26 samples.

Results

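Stbd1 and 6 other genes of glycogen metabolism (Gyg, Gys1, Gbe1, Ppp1r3c, Pygb and Pygl) were followed in mouse pancreatic islets kept at different glucose concentrations. Each gene was read from its brightest probe set among those annotated to it alone, by the mean log2(signal + 16) over 26 arrays. The probe sets were 1434442_at for Stbd1, 1459522_s_at for Gyg, 1416737_at for Gys1, 1420654_a_at for Gbe1, 1433691_at for Ppp1r3c, 1433504_at for Pygb and 1417741_at for Pygl. All 7 were above the array median on at least 2 arrays, and so were among the 12580 genes tested. Stbd1 was chosen by its measured signal, which is much lower at high glucose, and the other 6 are genes of the same pathway. Its values across glucose, time and culture are therefore a description with no test, while the other 6 genes were tested together with all genes.

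Islets came from wild-type C57/Bl6J male mice, young (5 weeks) or old (56 weeks), and total RNA of whole islets was measured. Cultured islets of both ages recovered for 1 day at 11 mM glucose and then spent 2 days at 3, 5.5 or 11 mM, and young islets also at 16 mM. Freshly isolated islets of each age were measured too, and a time course, per the study's design text, moved young islets from a night at 3 mM (0 h) to 11 mM for 1 h or 4 h, with no islets held at 3 mM for the same hours. The 12 groups had 2 arrays each, except young islets at 11 mM, which had 4. The labels call the replicates biological and do not say whether mice were pooled, so the spread behind each p-value is that between these samples. In whole islets, fewer cells of a type and less RNA per cell cannot be told apart.

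Glycogen is a branched polymer of glucose. Glycogenin (Gyg) starts a particle by attaching glucose to itself, glycogen synthase (Gys1) lengthens the chains and the branching enzyme (Gbe1) adds branch points. Ppp1r3c, also called protein targeting to glycogen, brings protein phosphatase 1 to the particle, and the phosphorylases Pygb and Pygl release glucose from it. Stbd1 binds glycogen through a starch-binding domain, holds it at the endoplasmic reticulum membrane and is linked to its delivery to lysosomes. In beta cells, glucose uptake follows the glucose outside, and beta cells exposed to high glucose can store glycogen.

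The labels name no batches, but the Gapdh control probes, whose 5′ signal was divided by the 3′ signal, part the arrays in 2 sets. The quotient was 1.03 to 1.48 on 12 arrays (set A), which hold all old islets, fresh young islets and, of the young 11 mM islets, replicates 3 and 4. Set B, with 0.1 to 0.277 on 14 arrays, holds the other cultured young islets and the time course. Within it the quotient was 0.1 to 0.169 on the 8 arrays of 2-day cultures and 0.194 to 0.277 on the 6 of the time course. Each difference given below lies within 1 set, or is a difference of 2 such differences. The latter sets an old response on set A against a young response on set B, so age and array set cannot be told apart in it. Old and young islets at 3 mM or at 5.5 mM lie in different sets, and no difference between them is given. Beta cell markers were high on every array, with a summed signal of 14585 to 52526 over the 7 of 8 listed genes that could be read, among them Ins2 at 2230 to 5224 and Pdx1 at 393 to 1765. The same sum was 16736 to 19352 in young islets at 3 mM and 33492 to 38271 at 16 mM, and 18984 to 21121 in old islets at 3 mM and 33632 to 41354 at 11 mM. That sum includes G6pc2 and Slc2a2, which are themselves given below as raised by glucose. In young islets G6pc2 read 1503 to 1559 at 3 mM and 7125 to 9883 at 16 mM. Slc2a2 read 1049 to 1282 and 4994 to 6104. Markers of other endocrine cells (5 of 6) summed to 33099 to 42131 in young islets at 3 mM and 46593 to 58281 at 16 mM. In old islets they summed to 39981 to 45022 at 3 mM and 49140 to 55600 at 11 mM. Duct markers (4 of 6 read) went the other way, from 2371 to 2598 in young islets at 3 mM to 1921 to 2148 at 16 mM, with Krt7 at 790 to 2961 over all arrays while Krt19, Sox9 and Cftr stayed at 1 to 37, 6 to 36 and 0 to 20. The part of these shifts in the results on glucose was not tested.

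The promoters of Stbd1 and Gyg are shown because of the 7 genes these 2 had a lower mean signal at every higher glucose concentration than at 3 mM, in both ages, and at 1 h and 4 h than at 0 h. They are the 250 bases before the start, 5′ to 3′ on the gene's strand, from RefSeq (GRCm38.p6), where all 7 genes had an entry. The Stbd1 window is chr5:92602801-92603050 on the plus strand and the Gyg window is chr3:20155117-20155366 on the minus strand. Capitals mark GC boxes (GGGCGG on either strand).
Stbd1: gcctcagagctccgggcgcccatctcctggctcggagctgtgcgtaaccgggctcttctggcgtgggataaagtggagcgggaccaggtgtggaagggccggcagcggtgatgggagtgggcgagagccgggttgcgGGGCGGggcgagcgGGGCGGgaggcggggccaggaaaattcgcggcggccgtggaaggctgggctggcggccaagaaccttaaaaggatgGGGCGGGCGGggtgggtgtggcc
Gyg: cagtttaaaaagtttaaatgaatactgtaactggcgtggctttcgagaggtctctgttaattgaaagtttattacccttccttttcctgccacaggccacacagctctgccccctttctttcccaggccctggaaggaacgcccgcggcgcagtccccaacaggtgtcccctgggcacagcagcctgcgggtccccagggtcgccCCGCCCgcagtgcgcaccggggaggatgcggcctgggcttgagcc
The Stbd1 window holds 4 GC boxes, of which the last pair overlap, and the Gyg window holds 1, on the other strand. A GC box occurs in 35.7% of the 32851 RefSeq windows, which run from 250 bases before to 50 bases after each start. In these full windows Pygl also has 4, Gys1 has 3 and Gbe1 has 1, while Ppp1r3c and Pygb have none. The full Stbd1 window has a GC content of 70.7% and that of Gyg 62%, against a median of 52.7% over all windows. Those of the other members run from 54.3% (Gbe1) to 67% (Pygl). The letters CACGTG (E-box) are in 7.15% of windows; they are in that of Gyg, after the start, and in that of Ppp1r3c, 104 bases before it, and not in that of Stbd1. TGACGTCA (CRE, 1.79% of windows), GTAAACA (FOXO site, 3.65%) and TGATGCAAT (ATF4-C/EBP composite, 0.192%) were found in none of the 7 windows, searching both strands. CCAAT, in 37.4% of windows, was found 4 times in that of Gys1 and 2 times in that of Ppp1r3c. These matches are a description of letters, not of binding.

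Stbd1 was high at 3 mM glucose and near the array median at 11 and 16 mM. In young islets its signal (MAS5 intensity) was 1310 and 1067 at 3 mM, 805 and 371 at 5.5 mM, 39 and 40 at 11 mM on set B, 36 and 34 at 11 mM on set A, and 32 and 36 at 16 mM. No value at 5.5 mM reached those at 3 mM, and all 6 arrays at 11 and 16 mM were far below both. The mean at 5.5 mM was 49.5% of the mean at 3 mM, and the means at 11 mM (set B) and 16 mM were 3.32% and 2.86% of it. On the log2(signal + 16) scale the differences from 3 mM were -1.09 at 5.5 mM, -4.43 at 11 mM and -4.58 at 16 mM, each with a standard error (SE) of 0.27 and 2 arrays per group. The first of these rests on unequal arrays: it is -1.63 without replicate 1 of the 5.5 mM islets and -0.55 without replicate 2. From 11 to 16 mM the difference was -0.15.

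The 6 Stbd1 signals of young islets at 11 and 16 mM, 32 to 40, lay at the level of the array median, which was 31 to 40 on those arrays, and 4 of the 6 were above it. The size of the fold below 3 mM (30.1-fold at 11 mM and 35-fold at 16 mM) therefore depends on dim signals. Detection calls were not analysed here.

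In old islets the Stbd1 signal was 765 and 704 at 3 mM, 519 and 394 at 5.5 mM, and 71 and 65 at 11 mM. The 3 groups did not overlap, and their order was the same as in young islets. The differences from 3 mM were -0.68 at 5.5 mM and -3.16 at 11 mM (SE 0.27), and the mean at 11 mM was 9.26% of that at 3 mM. The difference from 3 to 11 mM was smaller than in young islets by 1.27 on the log2 scale (SE 0.38), as a difference of the 2 differences and with no test. The old difference is on set A and the young one on set B, so age and array set cannot be told apart here. At 11 mM, where both ages can be set side by side on set A, the old arrays at 71 and 65 were above the young ones at 36 and 34, a difference of 0.72 (SE 0.27).

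**Figure D1:**
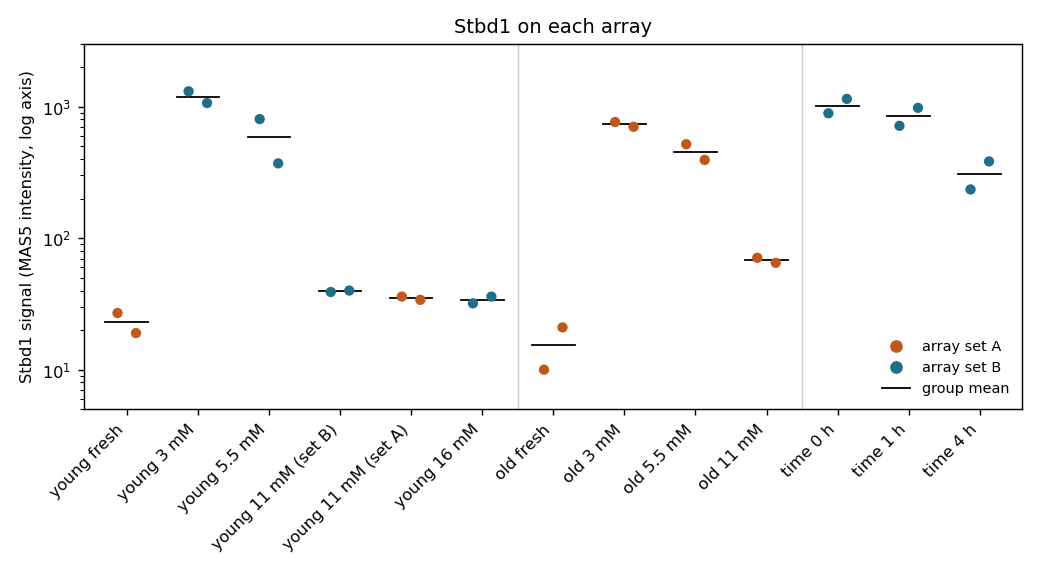
Stbd1 signal on each of the 26 arrays (MAS5 intensity, log axis), by group, with colour for the array set and a line for the group mean. The arrays at 3 and 5.5 mM and those of the time course lie between 235 and 1310, those of old islets at 11 mM at 65 and 71, and those of young islets at 11 and 16 mM and of fresh islets between 10 and 40.

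Freshly isolated islets had the lowest Stbd1 signals. They were 27 and 19 in young and 10 and 21 in old islets, all 4 below their array medians of 37 to 42. The age groups overlapped, and the difference of -0.32 (SE 0.27) did not pass the test (limma, adjusted p = 0.499). This is the comparison of Stbd1 that its choice did not use. Stbd1 passed the filter through other arrays, however, so this test rests on dim signals and can show little about age. Against fresh islets of the same age, Stbd1 differed by 0.39 after culture of young islets at 11 mM, by 1.44 after culture of old islets at 11 mM and by 4.6 after culture of old islets at 3 mM (SE 0.27 each). Because the fresh signals are dim, these values move with the pseudocount: with 1 in place of 16 the last pair were 2.15 and 5.56, and with 64 they were 0.73 and 3.33. Markers of other cells differed between fresh and cultured islets in both directions. Summed acinar markers (6 of 8 read) were 4561 to 8671 in young and 11912 to 23687 in old fresh islets and 30 to 638 after 2 days of culture, and endothelial markers (6 of 6) were 1588 to 1836 against 213 to 414. Duct markers were lower in fresh islets, 838 to 1190 in young ones against 1346 to 1354 at 11 mM on set A, and 1231 to 1478 in old ones against 2040 to 2986 in culture. Mesenchymal markers were lower too, 2213 to 3379 against 3934 to 4248 in young islets at 11 mM on set A and 634 to 770 against 907 to 1731 in old ones, and macrophage and leukocyte markers were 847 to 909 in fresh and 1017 to 1184 in cultured old islets. Their part in the differences from fresh islets was not tested.

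In the time course Stbd1 was 892 and 1147 at 0 h, 716 and 981 after 1 h and 235 and 384 after 4 h at 11 mM. The arrays at 1 h overlapped those at 0 h, and both arrays at 4 h were below every array of the earlier times. By replicate number, each array at 1 h was below its partner at 0 h (892 and 716, 1147 and 981). The differences from 0 h were -0.27 at 1 h and -1.70 at 4 h (SE 0.27), and the mean at 4 h was 30.4% of that at 0 h. The 4 h difference is -1.36 without replicate 1 at 4 h and -2.03 without replicate 2, each time against both arrays at 0 h. By replicate number, the log2 values at 0 h and 4 h were 9.83 and 7.97 in replicate 1 and 10.18 and 8.64 in replicate 2. Summed beta cell markers were 16537 to 20172 at 0 h and 16500 to 20188 at 4 h. Mesenchymal markers were lower at 4 h, 1055 to 1179 against 1506 to 1555 at 0 h. Macrophage and leukocyte markers were lower too, 338 to 362 against 379 to 425. Sums of the other lists overlapped between 0 h and 4 h, with acinar markers at 436 to 3792 and 460 to 914. The part of these shifts in the Stbd1 differences was not tested. The 4 h arrays remained above the 39 and 40 read after 2 days at 11 mM, on arrays of set B with a lower Gapdh quotient, whose part was not tested.

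By mean signal, as a description that spans both array sets (whose part in the order was not tested), the groups followed each other from young islets at 3 mM (1188.5 ± 172, SD, n = 2) through 0 h of the time course (1019.5 ± 180), 1 h (848.5 ± 187), old islets at 3 mM (734.5 ± 43.1), young at 5.5 mM (588 ± 307) and old at 5.5 mM (456.5 ± 88.4). Each of these overlapped the next in the order. Below them came 4 h (309.5 ± 105), old islets at 11 mM (68 ± 4.24) and young islets at 11 mM on set B (39.5 ± 0.707) and on set A (35 ± 1.41), with no overlap between neighbours. Young islets at 16 mM (34 ± 2.83) overlapped the set A arrays at 11 mM, and fresh young (23 ± 5.66) and fresh old islets (15.5 ± 7.78) overlapped each other below all the rest.

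Gyg, the primer of glycogen synthesis, fell with glucose in both ages. In young islets its signal was 1156 and 1220 at 3 mM, 800 and 621 at 5.5 mM, 625 and 654 at 11 mM on set B, and 660 and 544 at 16 mM. The 3 mM arrays were above all others, while the arrays at the 3 higher concentrations lay close together, so that most of the difference was present at 5.5 mM. The falls from 3 mM were -0.74 at 5.5 mM (SE 0.13, adjusted p = 0.00294), -0.88 at 11 mM (adjusted p = 7.14e-05) and -0.97 at 16 mM (adjusted p = 1.93e-05, limma with Benjamini-Hochberg adjustment over all genes, called under 0.05). The mean at 16 mM was 50.7% of that at 3 mM. Without replicate 2 of the 5.5 mM islets, the call at 5.5 mM was lost (-0.56, adjusted p = 0.082). The calls at 11 and 16 mM held under each of the 14 other settings tried.

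In old islets Gyg was 598 and 564 at 3 mM, 523 and 427 at 5.5 mM and 432 and 428 at 11 mM. The groups did not overlap with 3 mM, but the distances were smaller than in young islets. The fall to 11 mM was -0.42 (SE 0.13, adjusted p = 0.025), and the difference at 5.5 mM, -0.29, did not pass (adjusted p = 0.243). The call at 11 mM was lost without any 1 of its 4 arrays (-0.46 to -0.38, adjusted p = 0.062 to 0.149). The difference between the ages in this fall, 0.46 (SE 0.19), did not pass the test (adjusted p = 0.415), so the fall is not shown to differ by age. In the time course Gyg was 810 and 880 at 0 h, 658 and 841 at 1 h and 569 and 609 at 4 h. By replicate number, each array at 1 h was below its partner at 0 h. The arrays at 1 h overlapped those at 0 h (-0.18, adjusted p = 1), and those at 4 h lay below all 4 earlier ones (-0.51, SE 0.13, adjusted p = 0.0156). That call was lost without replicate 2 at 0 h (-0.45, adjusted p = 0.131) and without replicate 1 at 4 h (-0.46, adjusted p = 0.117).

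Gyg was also lower in old than in young islets. Fresh islets had 473 and 488 in old and 659 and 647 in young mice (-0.43, SE 0.13, adjusted p = 0.0458), and islets at 11 mM had 432 and 428 in old and 572 and 589 in young mice on set A (-0.42, adjusted p = 0.0368). The groups did not overlap in either comparison, but both adjusted p-values are near the threshold. Leaving out any 1 of the 4 arrays ended the call in fresh islets (-0.45 to -0.41, adjusted p = 0.132 to 0.202) and in islets at 11 mM (-0.44 to -0.40, adjusted p = 0.0956 to 0.157). A dimmer probe set of Gyg, tried after the data were seen, gave 348 to 410 in young islets at 3 mM, 177 to 212 at 11 mM on set B and 120 to 184 at 16 mM, again highest at 3 mM. It did not pass at 5.5 mM in young islets (-0.40, adjusted p = 0.299), at 4 h (-0.33, adjusted p = 0.385) or between the ages in fresh islets (-0.51, adjusted p = 0.13).

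Gys1, the synthase, went the other way in young islets. Its signal was 45 and 55 at 3 mM, 62 and 48 at 5.5 mM, 72 and 101 at 11 mM on set B, and 104 and 135 at 16 mM. Arrays at 11 mM on set B and at 16 mM were above those at 3 mM. On set A the 11 mM arrays read 6 and 38, below those at 3 mM, which are on set B. The rise at 16 mM was 1.03 (SE 0.34, adjusted p = 0.0277), to 239% of the 3 mM mean. The difference at 11 mM, 0.62, did not pass (adjusted p = 0.194), and without the array set in the fit it was -0.15. The call at 16 mM was lost without replicate 1 or 2 at 3 mM (0.92 and 1.14) and without replicate 2 at 16 mM (0.87). It was also lost with a pseudocount of 1 (1.24, limma adjusted p = 0.0992) and without the array set in the fit (1.03, adjusted p = 0.167).

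In old islets Gys1 was 31 and 54 at 3 mM, 59 and 35 at 5.5 mM and 75 and 65 at 11 mM. Both 11 mM arrays were above both 3 mM arrays, but the difference of 0.58 did not pass (adjusted p = 0.237). At 11 mM on set A, Gys1 was higher in old islets, 75 and 65 against 6 and 38 in young islets (1.32, SE 0.34, adjusted p = 0.0128). That value rests on the reading of 6, in replicate 3: without it the difference was 0.67 and the call was lost (adjusted p = 0.249). It was also lost without replicate 1 (1.23, adjusted p = 0.064) or 2 (1.40, adjusted p = 0.061) of the old islets. Fresh islets had 53 and 58 in young and 19 and 51 in old mice, and the time course 37 to 58, with no call. The difference from fresh to 11 mM in young islets on set A, -1.05, did not pass (adjusted p = 0.0994); without replicate 4 it passed (-1.70, adjusted p = 0.00918).

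Gbe1, the branching enzyme, was lowest at 3 mM in young islets. The signals were 66 and 59 at 3 mM, 127 and 107 at 5.5 mM, 96 and 105 at 11 mM on set B and 97 and 102 at 16 mM. All arrays above 3 mM were higher than both at 3 mM, with no further step between 5.5 and 16 mM. The rises were 0.76 at 5.5 mM (SE 0.18, adjusted p = 0.0162), 0.57 at 11 mM (adjusted p = 0.0244) and 0.56 at 16 mM (adjusted p = 0.0247). Each was lost when any 1 of its 4 arrays was left out, with 0.65 to 0.87 and adjusted p = 0.0659 to 0.125 at 5.5 mM, 0.51 to 0.63 and 0.0571 to 0.135 at 11 mM, and 0.49 to 0.62 and 0.0619 to 0.134 at 16 mM.

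In old islets Gbe1 was 69 and 99 at 3 mM, 112 and 134 at 5.5 mM and 114 and 93 at 11 mM. The arrays at 5.5 mM were above those at 3 mM (0.49, adjusted p = 0.133) and those at 11 mM overlapped them (0.27, adjusted p = 0.313), and neither difference passed. Fresh islets had 192 and 177 in young and 177 and 125 in old mice, and young islets at 11 mM on set A had 160 and 165. Old islets at 3 mM were lower than fresh old ones by -0.74 (SE 0.18, adjusted p = 0.00341), a call lost without replicate 1 at 3 mM (-0.52, adjusted p = 0.0833) or replicate 1 of the fresh islets (-0.51, adjusted p = 0.0855). At 11 mM on set A, Gbe1 was lower in old islets, 114 and 93 against 160 and 165 in young islets (-0.58, adjusted p = 0.0333). This call was lost without replicate 3 or 4 of the young islets (-0.60, adjusted p = 0.109, and -0.56, adjusted p = 0.141) and without replicate 2 of the old ones (-0.46, adjusted p = 0.238). The time course ranged from 65 to 101, and no difference passed.

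Ppp1r3c, the phosphatase targeting subunit, fell with glucose in old islets. Its signal there was 157 and 183 at 3 mM, 86 and 151 at 5.5 mM and 96 and 67 at 11 mM. Both 3 mM arrays were above all 4 others, and the fall at 11 mM was -0.94 (SE 0.29, adjusted p = 0.0219), to 47.9% of the 3 mM mean. It was lost without replicate 1 or 2 at 3 mM (-1.05, adjusted p = 0.0672, and -0.84, adjusted p = 0.121) and without replicate 2 at 11 mM (-0.73, adjusted p = 0.181). In young islets Ppp1r3c was 99 and 106 at 3 mM, 119 and 100 at 5.5 mM, 88 and 99 at 11 mM on set B and 95 and 64 at 16 mM, and the difference at 11 mM, -0.12, did not pass (adjusted p = 0.816). The ages were not shown to differ in this response (-0.83, SE 0.41, adjusted p = 0.506).

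Fresh islets had Ppp1r3c signals of 108 and 256 in young and 123 and 173 in old mice. The 2 young arrays are far apart, and the difference from fresh to 11 mM on set A in young islets (87 and 71), -0.96, did not pass (adjusted p = 0.0732). With the replicate number as a block the same value passed (limma adjusted p = 0.0416), though that block held no term for these arrays. Without replicate 1 of the fresh islets the difference was -1.52. In old islets the difference from fresh to 11 mM was -0.75 (adjusted p = 0.155). The time course ranged from 76 to 120 with no call.

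The 2 phosphorylases stayed within narrow ranges. Pygb, the brain form, ranged from 50 to 110 over the 26 arrays and Pygl, the liver form, from 59 to 117, and no difference of either passed in any of the 14 comparisons. With SEs of 0.25 and 0.21, small differences were not detectable with 2 arrays per group. From 3 to 16 mM in young islets Pygb went from 63 and 82 to 100 and 75 (0.22, adjusted p = 0.545) and Pygl from 97 and 88 to 96 and 97 (0.05, adjusted p = 0.883). In old islets from 3 to 11 mM Pygb differed by -0.33 (adjusted p = 0.363) and Pygl by 0.24 (adjusted p = 0.455). Both arrays of Pygb at 3 mM read 96 or more, and its 11 mM arrays, 50 and 105, lay on either side of them. Without replicate 2 at 11 mM, the array that read 105, the Pygb difference was -0.77 and passed (adjusted p = 0.0451), and without replicate 1 it was 0.11.

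**Figure D2:**
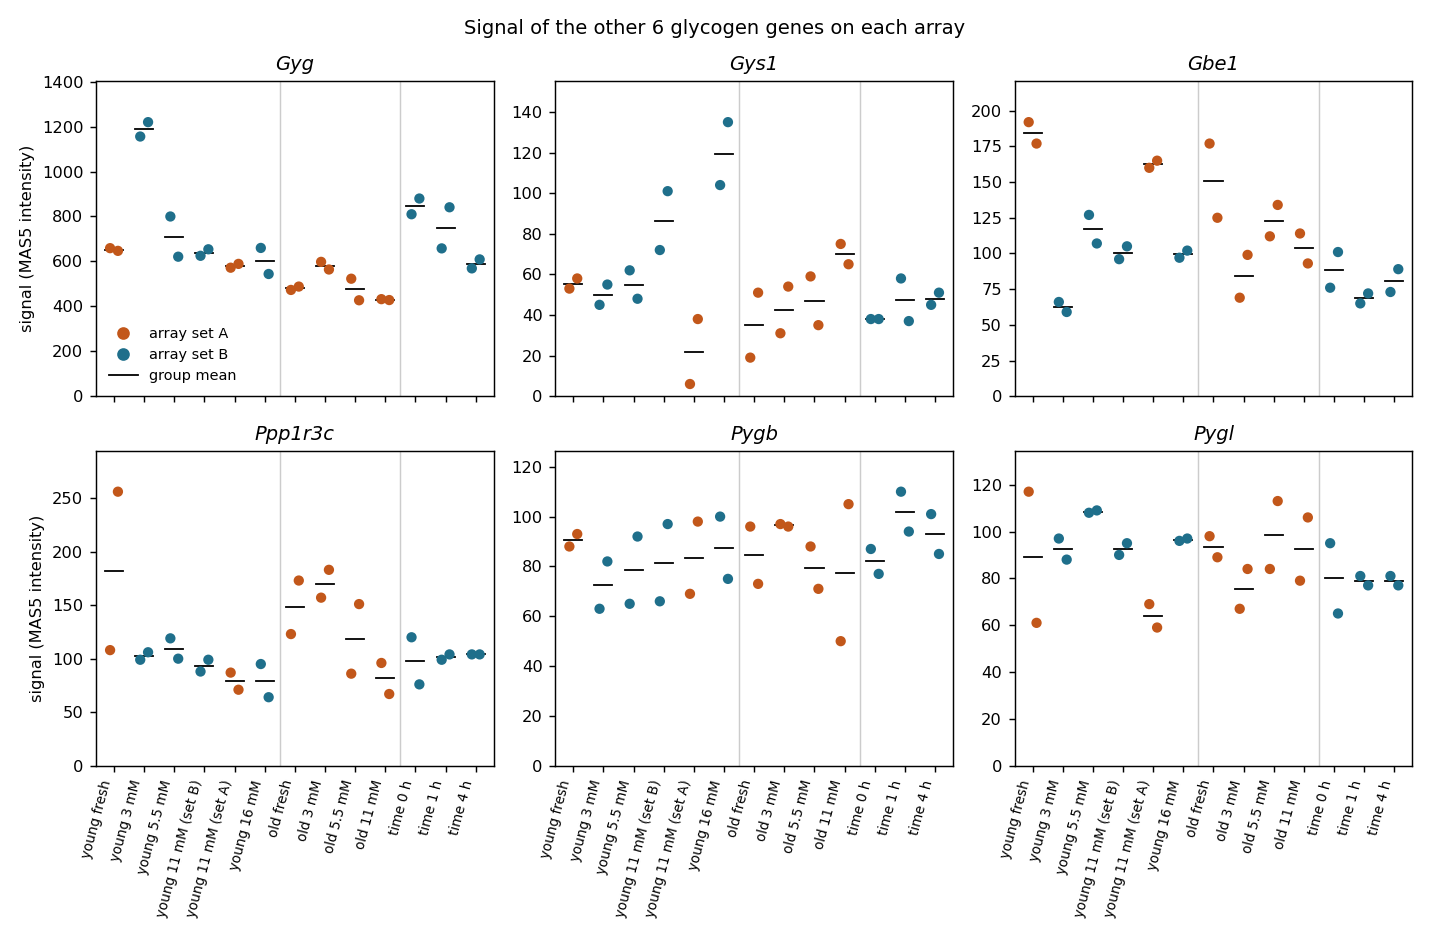
Signal of Gyg, Gys1, Gbe1, Ppp1r3c, Pygb and Pygl (MAS5 intensity, linear axes from 0) on each array, by group, with colour for the array set and a line for the group mean. Gyg is highest in young islets at 3 mM (1156 and 1220), Gbe1 is lowest there (66 and 59), Gys1 is highest in young islets at 16 mM (104 and 135), and Pygb and Pygl show no group apart from the rest.

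Read together, the 6 tested genes moved in both directions. At 5.5 against 3 mM in young islets Gbe1 rose and Gyg fell, 2 of 6, where 6.06% of all genes were called. At 11 against 3 mM the same 2 genes passed, 2 of 6 against 26.4% of all genes, and at 16 against 3 mM Gys1 joined them, 3 of 6 against 28.7%. These 3 comparisons share the 3 mM arrays. Between 11 and 16 mM none of the 6 passed, against 0.00795% of all genes. None had an unadjusted p under 0.05 in limma, against 1062 of 12580 genes. In old islets none of 6 passed at 5.5 mM, against 4.69% of all genes. At an unadjusted p under 0.05 in limma there were 2 of 6, against 2353 of 12580 genes. Gyg and Ppp1r3c fell at 11 mM in old islets, 2 of 6 against 24.6%. The shares at 11 mM are near those of all genes, and 1 gene of 6 is 16.7%, so they say nothing particular about this group of genes.

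The median log2 difference of the 6 genes was 0.07 at 11 against 3 mM in young islets, 0.14 at 16 against 3 mM and -0.05 at 11 against 3 mM in old islets, against 0.05, 0.01 and 0.04 over all genes. For the difference between the ages in the response to 11 mM, none of the 6 passed, against 0.143% of all genes. At an unadjusted p under 0.05 in limma there was 1 of 6, Gyg, against 1275 of 12580 genes. Between old and young fresh islets 1 of 7 passed, Gyg, against 9.44% of all genes, and at 11 mM 3 of 6 passed, Gys1 higher and Gyg and Gbe1 lower in old islets, against 15.6%. Between fresh islets and islets cultured at 11 mM none of 6 passed in young or old mice, against 4.19% and 5.56% of all genes. At an unadjusted p under 0.05 in limma there were 2 of 6 in young mice, against 1936 of 12580 genes. In old mice there were 3 of 6 at that unadjusted p, against 2380. Between fresh old islets and those at 3 mM 1 of 6 passed, Gbe1, against 35.1%. After 1 h at 11 mM none of 6 passed, against 0.262% of all genes. None had an unadjusted p under 0.05 in limma, against 770 of 12580 genes. After 4 h 1 of 6 passed, Gyg, against 11.4%. With the replicate number as a block no count of these genes changed in the comparisons of glucose and time, while the count over all genes went from 762 to 1531 at 5.5 against 3 mM in young islets, from 1 to 102 at 16 against 11 mM, from 33 to 78 at 1 h and from 1428 to 2152 at 4 h.

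Markers of several cell types differed with age. Beta cell markers summed to 49999 to 52526 in young and 32523 to 44195 in old fresh islets, and to 42473 to 44916 and 33632 to 41354 at 11 mM on set A. Those of other endocrine cells (5 of 6) summed to 70718 to 74055 in young and 41146 to 57184 in old fresh islets, and to 59566 to 65894 and 49140 to 55600 at 11 mM. Mesenchymal markers (6 of 6) summed to 2213 to 3379 in young and 634 to 770 in old fresh islets, and to 3934 to 4248 and 1319 to 1394 at 11 mM on set A. Macrophage and leukocyte markers (6 of 6) summed to 729 to 936 in young and 1095 to 1171 in old islets at 11 mM on set A. In fresh islets these sums overlapped, at 905 to 968 in young and 847 to 909 in old ones. Their part in the differences of Gyg, Gys1 and Gbe1 between the ages was not tested.

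**Figure D3:**
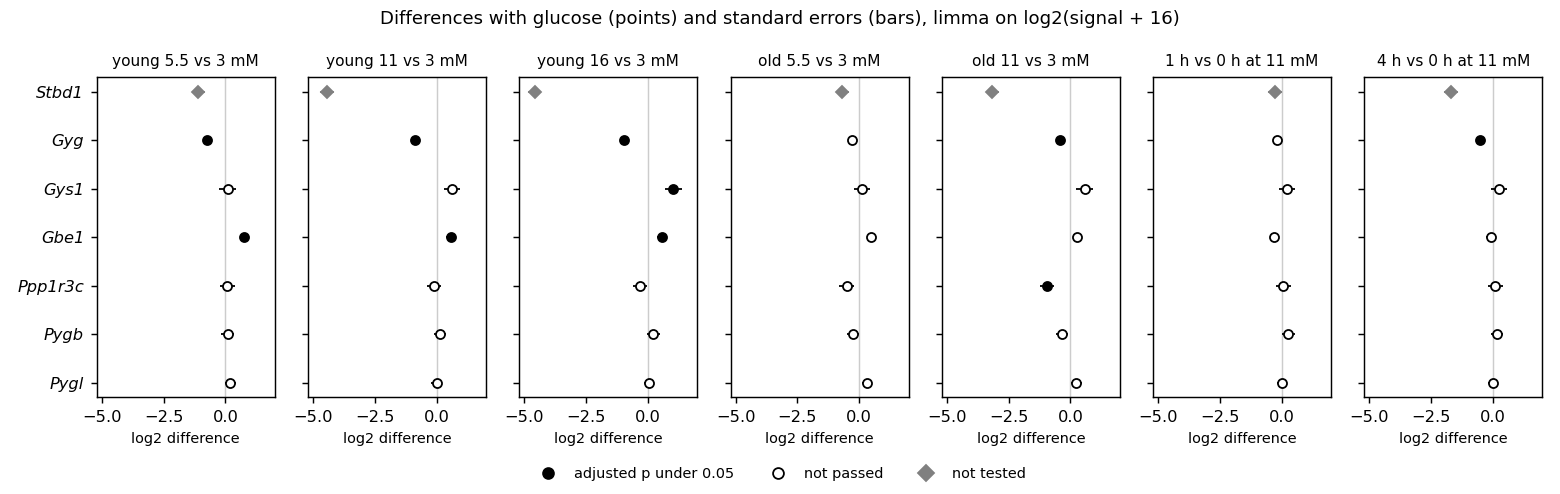
Log2 difference of each of the 7 genes (points, limma on log2(signal + 16), bars are standard errors) for 7 comparisons of glucose or time, with filled points for an adjusted p under 0.05, open points for those that did not pass and grey diamonds for Stbd1, which was not tested. Stbd1 lies between -3.16 and -4.58 at 11 and 16 mM, while the called differences of the other genes lie between -0.97 and 1.03.

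Of 47 other genes of glycogen and glucose phosphate handling listed for this comparison, 39 were tested. Gys2, Pygm, Ppp1r3a, Ppp1r3g, Phkg1 and G6pc were not above the array median on 2 arrays. At 16 against 3 mM in young islets 9 of the 39 rose and 7 fell, against 14.5% and 14.2% of all genes, and their median difference was -0.04. At 11 against 3 mM in old islets 9 rose and 2 fell, against 13.9% and 10.6%, with a median of -0.03. The list moved in both directions, and its largest rises were in genes of glucose entry and glucose-6-phosphate release.

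The 2 genes of the list with the smallest adjusted p at 16 mM are beta cell genes that were also on the marker list. G6pc2, the islet glucose-6-phosphatase subunit, read 1503 to 1559 in young islets at 3 mM and 7125 to 9883 at 16 mM, and Slc2a2, the glucose transporter of beta cells, 1049 to 1282 and 4994 to 6104. Slc37a4, which carries glucose-6-phosphate into the endoplasmic reticulum, rose by 1.06 (SE 0.19, adjusted p = 0.000271), from 422 to 459 at 3 mM to 896 to 973 at 16 mM. In old islets at 11 mM it rose by 1.28 (adjusted p = 6.1e-05). Slc2a1, the widely expressed glucose transporter, fell by 1.33 in young islets at 16 mM (SE 0.28, adjusted p = 0.00137), from 554 to 657 to 208 to 254. Thus the 2 transporters moved in opposite directions in young islets. In old islets at 11 mM Slc2a2 rose by 2.9 (limma adjusted p = 8.98e-06), while the difference of Slc2a1, -0.46, did not pass (adjusted p = 0.265).

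Subunits that bring protein phosphatase 1 to glycogen did not all follow Ppp1r3c. Ppp1r3f rose by 0.80 in young islets at 16 mM (SE 0.15, adjusted p = 0.000502), and Ppp1r3d rose by 1.04 in old islets at 11 mM (SE 0.18, adjusted p = 0.000323), from 57 to 66 at 3 mM to 140 to 146. Ppp1r3d rose in young islets too, by 0.83 at 11 mM (limma adjusted p = 0.00206) and 0.67 at 16 mM (adjusted p = 0.00836). In old islets at 11 mM the difference of Ppp1r3f, 0.4, did not pass (limma adjusted p = 0.0572). Ppp1r3e, named after its values were seen, fell by 0.80 in young islets at 16 mM (SE 0.18, adjusted p = 0.00214) and by 0.55 at 11 mM (adjusted p = 0.0281), and its difference in old islets at 11 mM was -0.22 (adjusted p = 0.409). Its call at 16 mM was lost without replicate 2 there (adjusted p = 0.0587), and that at 11 mM when replicate 2 there or any 3 mM array was omitted (adjusted p up to 0.233).

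Gabarapl2, of the family of autophagy proteins that Stbd1 is known to bind, rose by 0.46 in young islets at 16 mM (SE 0.09, adjusted p = 0.000926) and by 0.64 in old islets at 11 mM (adjusted p = 5.28e-05). Gabarapl1 and Gabarap, of the same family, were named after their values were seen. Gabarapl1 fell by 0.80 in young islets at 16 mM (SE 0.26, adjusted p = 0.0232), and Gabarap fell by 0.46 at 11 mM (SE 0.12, adjusted p = 0.00607). In old islets at 11 mM their differences were -0.24 and -0.08 (adjusted p = 0.543 and 0.694). The call of Gabarapl1 was lost under 5 of 13 other settings (adjusted p up to 0.484), among them the fit with no array set and the omission of replicate 2 at 16 mM or of a 3 mM array, and that of Gabarap when replicate 2 at 3 mM or replicate 1 at 11 mM was omitted (adjusted p up to 0.0784). Gaa, the lysosomal enzyme that degrades glycogen, rose by 0.67 in old islets at 11 mM (SE 0.11, adjusted p = 0.00025), from 861 to 958 at 3 mM to 1345 to 1564. Without the array set in the fit, the calls of Gabarapl2 (adjusted p = 0.238 and 0.0997) and Gaa (adjusted p = 0.319) were lost.

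After 4 h at 11 mM 3 of the 39 fell and none rose, against 5.64% and 5.72% of all genes, and the median was -0.11. Phkb, a subunit of the kinase that activates phosphorylase, fell by 0.66 (SE 0.14, adjusted p = 0.00325), from 278 to 305 at 0 h to 178 to 179. Its fall missed the threshold in a fit of only the compared arrays (adjusted p = 0.052). After 2 days, against 3 mM, the same gene rose by 0.49 at 11 mM (adjusted p = 0.0121) and 0.42 at 16 mM (adjusted p = 0.0272) in young islets and by 0.42 at 11 mM in old islets (adjusted p = 0.0287). In young islets these calls were lost without replicate 2 at 3 mM or replicate 1 at the higher glucose (adjusted p up to 0.107 at 11 mM and 0.373 at 16 mM), and in old islets without any 1 of the 4 arrays (adjusted p up to 0.145). Without the array set, those at 16 mM and in old islets were lost too. Ppp1r3b, another phosphatase targeting subunit, read 88 to 90 at 0 h and 43 to 52 at 4 h (-0.73, adjusted p = 0.0178), and Prkag2, a regulatory subunit of AMP-activated kinase, 536 to 729 and 341 to 492 (-0.59, adjusted p = 0.0436). The call of Ppp1r3b was lost without any 1 of the 4 arrays (adjusted p up to 0.133) and in a fit of only the compared arrays. That of Prkag2 was lost under 6 of 13 other settings (adjusted p up to 0.423), among them leaving out replicate 2 at 0 h or replicate 1 at 4 h. With the replicate number as a block 8 of the 39 passed after 4 h, and 8 in place of 5 at 5.5 against 3 mM in young islets.

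Genes whose log2 signal most resembled that of Stbd1 were ranked by Pearson's r over the 26 arrays, as a description. Many genes follow glucose and the points share arrays, groups and array sets, so no p is given. The 5 highest were Steap1 (r = 0.974), a metalloreductase family member, Pparg (0.966), a nuclear receptor of lipid metabolism, Angptl6 (0.966), a secreted angiopoietin-like protein, Cyb5r1 (0.964), a cytochrome b5 reductase, and Dock5 (0.962), a guanine nucleotide exchange factor. Within set A their r was 0.96 to 0.985 and within set B 0.943 to 0.982, so the likeness was about as close within each set as over both. The mean signal of Steap1 was 1380 in young islets at 3 mM and 116 at 16 mM, that of Pparg 316 and 108, and that of Angptl6 2440 and 233. In fresh islets Steap1 read 74 to 95 and Pparg 49 to 74, low as for Stbd1.

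The 3 genes with the lowest r were Slitrk6 (-0.968), a membrane protein with leucine-rich repeats, Tmem229b (-0.967) and Pxylp1 (-0.95), a phosphatase of proteoglycan synthesis. Slitrk6 had a mean signal of 122 in young islets at 3 mM and 719 at 16 mM, and 748 to 818 in fresh islets. Over other pseudocounts and quantile normalization the r of the 8 genes stayed at 0.957 to 0.976 and -0.968 to -0.946. None of the other 6 glycogen genes came near these values: r with Stbd1 was 0.56 for Gyg (-0.07 in set A, 0.70 in set B), -0.68 for Gbe1 (-0.74 and -0.46), -0.14 for Gys1 (0.15 and -0.85) and between -0.03 and 0.04 for Ppp1r3c, Pygb and Pygl.

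**Figure D4:**
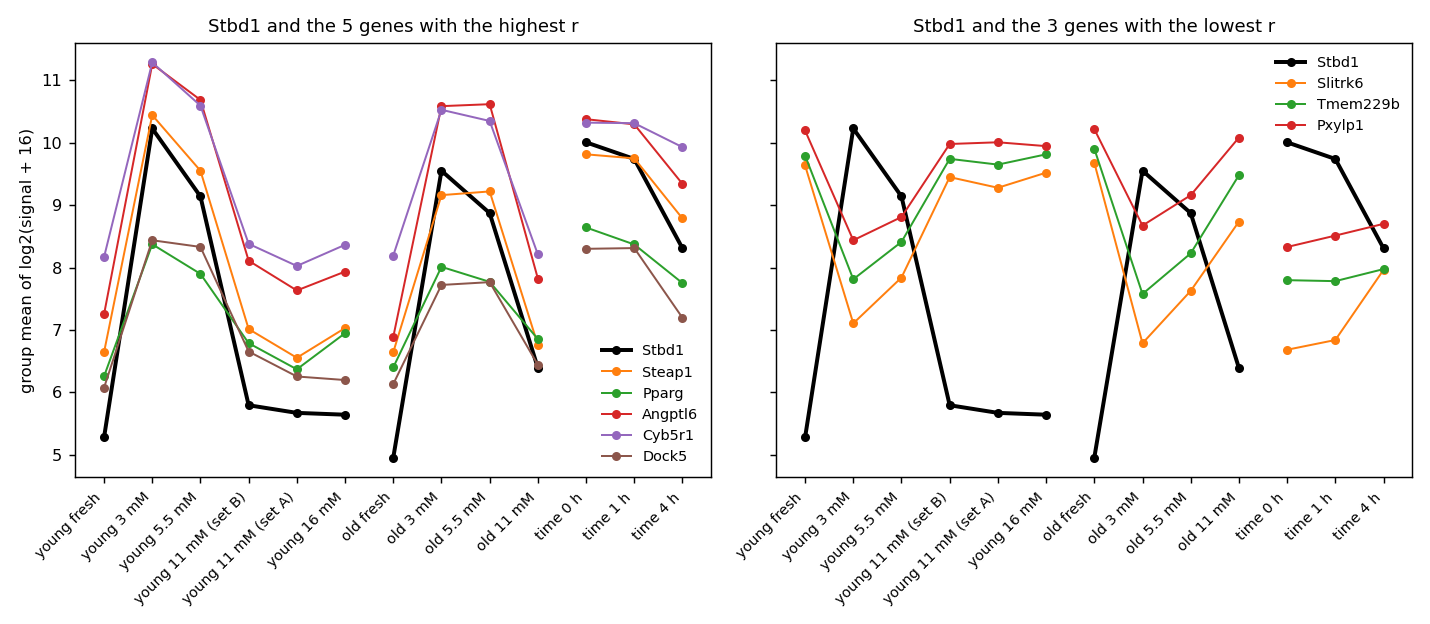
Group means of log2(signal + 16) for Stbd1 (black) with the 5 genes of highest r (left) and the 3 of lowest r (right), lines joining the groups of 1 age or of the time course. The left genes are high at 3 and 5.5 mM and in the time course and low in fresh islets and at 11 and 16 mM, and the right genes are lowest at 3 mM and in the first hours of the time course.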

How the data were processed

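Total RNA of 26 islet samples was measured on Affymetrix mouse arrays after 2 cycles of cDNA synthesis from 50 ng, per the labels' protocols. Each deposited value is the intensity of a probe set, computed by the authors using MAS5 according to the submitters' processing notes (its version is not given in the sources used here). Every array had a trimmed mean of 150, so scaling by the authors preceded deposit, and a changed total would not be seen. Values were taken as log2(value + 16), which understates differences of dim genes. Of 45101 probe sets, 34958 carried 1 gene symbol, 932 several (not used), and 34754 were updated through Entrez identifiers by a gene table of GRCm38.p6. The 23047 probe sets that exceeded their array's median on 2 or more arrays were kept, with the brightest per gene.

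A limma model (3.58.1, R 4.3.3) with 12 group means and the array set was fitted over all 26 arrays, with an intensity trend (13 residual and 7.02 prior degrees of freedom). Of tested genes, the words rise, fall and pass are used where the Benjamini-Hochberg adjusted p over 12580 genes is under 0.05. The script was tested on simulated data. Precision is limited by the number of arrays.

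The 7 genes, the gene lists and the array set term were chosen with earlier results of these data known. Named are the 7 genes, the other glycogen genes called with the smallest adjusted p (6 at 16 against 3 mM in young islets, 6 at 11 against 3 mM in old islets, 4 at 4 h against 0 h, where 3 were called) and the 5 genes most like and the 3 least like Stbd1, with the closest gene of each other member. Of the list of 47 other glycogen genes, 2 are not reported here.

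Replicate numbers were taken to pair arrays where arrays of 1 number deviated together from the means of their groups, with correlations of 0.169 to 0.417 over 6 pairs of cultured young groups of set B and 0.551 to 0.63 over 3 pairs of time points. Over 6 pairs of old groups they were 0.0556 to 0.196. The replicate block nevertheless held a term for the old arrays too. Alternatives were another pseudocount, quantile normalization, no filter, the mean of probe sets, no trend, no array set, the replicate block, the compared arrays alone, and each replicate left out.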

Additional observations from a re-analysis of the deposited data

How the results depend on the processing

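Of 1309 recomputed differences of the 7 genes, 1225 kept their side of the threshold (for Stbd1, stayed within the spread of replicates), 66 lost a call, 5 gained one and 13 values of Stbd1 moved. Changes of sign occurred in 49 of them, 43 with 1 replicate left out and 6 under other settings, none in a difference that was called before or after the change and none for Stbd1. Without the array set, Gys1 at 11 against 3 mM in young islets went from 0.62 to -0.15, its difference between the ages in that response from -0.04 to 0.74, and Ppp1r3c between ages at 11 mM from 0.03 to -0.08. With a pseudocount of 1 in place of 16, Stbd1 differed from 3 mM by -4.87 at 11 mM and -5.08 at 16 mM in young islets, and from fresh old islets by 2.15 at 11 mM and 5.56 at 3 mM. With 64 these values were -3.59, -3.67, 0.73 and 3.33, and the old difference at 11 against 3 mM was -2.60. The pseudocount acts on the dim signals at high glucose and in fresh islets.

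Leaving out 1 array at a time gave, for Stbd1, -1.63 to -0.55 at 5.5 against 3 mM in young islets, -4.58 to -4.29 at 11 mM, -4.73 to -4.44 at 16 mM and -0.21 to -0.09 from 11 to 16 mM. In old islets it gave -0.87 to -0.49 at 5.5 mM and -3.22 to -3.10 at 11 mM, with 1.13 to 1.42 for the difference between the ages and 0.67 to 0.77 between them at 11 mM. Against fresh islets it gave 0.25 to 0.54 (young at 11 mM), 1.18 to 1.69 (old at 11 mM) and 4.34 to 4.85 (old at 3 mM), and in the time course -0.49 to -0.04 at 1 h and -2.03 to -1.36 at 4 h. The number of tested glycogen genes called then was 0 to 1 at 5.5 mM, 1 at 11 mM and 1 to 2 at 16 mM in young islets, 0 to 1 at 11 mM in old islets, 0 between ages in fresh islets, 0 to 1 between ages at 11 mM, 0 to 1 between young islets at 11 mM and fresh ones, 0 to 1 between old islets at 3 mM and fresh ones, and 0 to 1 at 4 h. In the other comparisons it stayed at 0.

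Without the array set in the fit, this number was 1 at 5.5 mM and 1 at 16 mM in young islets, 1 at 11 mM in old islets, 0 and 1 between ages in fresh islets and at 11 mM, and 0 at 4 h. With only the compared arrays in the fit it was 0 at 5.5 mM, 0 and 1 between ages, and 0 at 4 h. Between ages in fresh islets it was also 0 with no filter, with the mean of probe sets and with no trend, and the mean of probe sets gave 2 between old islets at 3 mM and fresh ones and 0 at 4 h. The replicate block gave 1 call, Ppp1r3c, between young islets at 11 mM and fresh ones, where it held no term for the compared arrays. It changed no other call of the 7 genes.

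The counts over all genes moved more. Over the settings that leave out no replicate they ranged from 149 to 1531 at 5.5 mM (762 as reported), 0 to 102 from 11 to 16 mM (1), and 2272 to 4492 at 16 mM (3613) in young islets. In old islets they ranged from 83 to 1387 at 5.5 mM (590) and 1734 to 4016 at 11 mM (3090), and for the difference between the ages from 1 to 142 (18). Between ages they were 266 to 1935 in fresh islets (1188) and 869 to 2588 at 11 mM (1961). Against fresh islets they were 363 to 946 for young at 11 mM (527) and 359 to 1282 for old at 11 mM (699), and in the time course 0 to 78 at 1 h (33) and 450 to 2152 at 4 h (1428). With 1 array left out they were 112 to 661 at 5.5 mM in young islets, 54 to 311 at 5.5 mM and 1599 to 2317 at 11 mM in old islets, 0 to 21 for the difference between the ages, 729 to 1723 between ages at 11 mM, 287 to 350 and 306 to 671 for young and old islets at 11 mM against fresh ones, 1919 to 2573 at 11 mM in young islets (3320) and 2857 to 3389 for old islets at 3 mM against fresh ones (4415). Of the other 39 glycogen genes, 5 were called at 5.5 mM in young islets, and 3 without the array set, 3 with only the compared arrays and 1 to 4 with 1 array left out. At 16 mM in young islets (16) the last setting gave 9 to 13, and at 11 mM in old islets (11) it gave 7 to 10 and no array set gave 5. At 4 h (3) it gave 1 to 4, and the compared arrays alone gave 0 (Phkb at adjusted p = 0.052). The cause of these changes was not tested. Signals near the array median, as those of Stbd1 at 11 and 16 mM, have no detection call here.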

Other observations

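Gaa, the lysosomal enzyme that degrades glycogen, was the 1 of the 39 other glycogen genes that passed the test of a different response to 11 against 3 mM between the ages (0.90, SE 0.16, limma adjusted p = 0.0283). It is named here for this after its values were seen. The old response is on set A and the young one on set B, so age and array set cannot be told apart in it. Gaa in young islets at 11 mM read 568 to 572 on set A and 1880 to 1900 on set B. The call was lost under 10 of 17 other settings (adjusted p up to 0.272). Among them were leaving out replicate 1 or 2 of old islets at 3 mM, replicate 2 of old islets at 11 mM, replicate 1 or 2 of young islets at 3 mM, and replicate 2 of young islets at 11 mM. Gaa was also higher in old than in young islets, by 0.87 in fresh islets (adjusted p = 7.45e-05) and by 1.32 at 11 mM (adjusted p = 5.2e-07), with values of 0.54 to 0.97 and 0.47 to 1.43 over the other settings. Both calls were lost without the array set in the fit (adjusted p = 0.3 and 0.444) and held under the 12 others.

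The gene most like each other member over the 26 arrays was Nrip2 for Gyg (r = 0.878, 0.6 in set A and 0.873 in set B), Taf9b for Gbe1 (0.934, 0.905 and 0.887), Syvn1 for Gys1 (0.773, 0.544 and 0.944), Ppp1r16b for Ppp1r3c (0.741, 0.819 and 0.461), Fbxo2 for Pygl (0.738, 0.877 and 0.774) and Cbx3 for Pygb (0.652, 0.763 and 0.547). These are descriptions with no p. Nrip2, a nuclear receptor interacting protein, had a mean signal of 322 in young islets at 3 mM and 38.5 at 16 mM.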
